A study of Homo sapiens with 6 samples.

Results

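The transcription factors of epithelial to mesenchymal transition (EMT) were followed in A375 cells, an established human melanoma line, sorted by aldehyde dehydrogenase (ALDH) activity. The set held 8 of the 57914 genes in the deposited tables, found by gene name: the paired-type homeobox genes PRRX1 and PRRX2, the zinc finger genes ZEB1, ZEB2, SNAI1 and SNAI2, and the basic helix-loop-helix genes TWIST1 and TWIST2. PRRX1 was chosen by its measured fold change, high in the ALDH_High libraries of these same data, so its values below are a description and carry no test. The other 7 were taken by name, but the set was chosen with earlier results of these data known.

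Aldefluor, a substrate that ALDH enzymes turn into a fluorescent product held inside the cell, was used to stain the cells. The 5% with the strongest signal (ALDH_High) and the 5% with the weakest (ALDH_Low) were collected, with 3 libraries each, numbered 1 to 3. All 6 libraries came from the same line in the same medium, with no genetic change or drug named in the labels, and were made with a stranded mRNA kit. The labels do not say whether the libraries of a group came from separate cultures, so the p-values measure the spread between these libraries, which may be technical.

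In epithelial cells, EMT factors bind the control regions of adhesion genes such as CDH1, which encodes E-cadherin, and repress them, while genes of a motile, matrix-producing state come on. ZEB and SNAI proteins act mainly as repressors through corepressors, TWIST proteins bind DNA as dimers with E proteins, and the PRRX proteins are homeodomain factors of limb and craniofacial mesenchyme. Melanocytes come from the neural crest, where several of these factors are used in normal development, and in melanoma the SNAI2 and ZEB2 genes have been linked to the differentiated state and ZEB1 and TWIST1 to the dedifferentiated one. The miR-200 family of small RNAs represses ZEB1 and ZEB2, and the ZEB proteins repress the miR-200 genes in turn.

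The members fall into 4 paralog pairs, and reads from a stretch that 2 paralogs share could be counted for either. The TWIST pair is shown because its members went opposite ways, and the PRRX pair because PRRX1 stood far above PRRX2. The sequences are the best-matching windows of 120 coding bases in GENCODE 44 on GRCh38, read 5′ to 3′, and capitals mark the bases that differ from the paralog. The PRRX windows cover most of the part that encodes the homeodomain, and the TWIST windows lie within the part that encodes the basic helix-loop-helix domain.
PRRX1: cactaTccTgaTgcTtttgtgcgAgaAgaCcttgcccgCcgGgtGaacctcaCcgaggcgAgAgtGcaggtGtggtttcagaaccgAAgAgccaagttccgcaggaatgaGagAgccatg
PRRX2: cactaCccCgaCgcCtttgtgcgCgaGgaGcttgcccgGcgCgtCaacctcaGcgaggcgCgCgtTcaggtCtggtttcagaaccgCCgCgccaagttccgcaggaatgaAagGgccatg
TWIST1: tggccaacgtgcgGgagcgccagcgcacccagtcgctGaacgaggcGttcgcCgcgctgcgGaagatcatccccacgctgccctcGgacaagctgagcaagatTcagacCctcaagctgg
TWIST2: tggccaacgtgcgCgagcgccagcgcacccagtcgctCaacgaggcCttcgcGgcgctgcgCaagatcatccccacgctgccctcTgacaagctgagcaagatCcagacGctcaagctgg
The TWIST1 window lay in exon 1 at chr7:19116868-19116987 on the minus strand and the TWIST2 window in exon 1 at chr2:238848424-238848543 on the plus strand. They matched at 93.3% of their bases, with 8 mismatches and a longest identical run of 23 bases anywhere in the coding sequence. The PRRX1 window spanned exons 2 and 3 between chr1:170719833-170726270 and the PRRX2 window exons 2 and 3 between chr9:129719350-129720646, both on the plus strand. These matched at 83.3%, with 20 mismatches and a longest identical run of 20 bases. The best window of the ZEB pair also matched at 83.3%, and that of the SNAI pair at 76.7%. No run of more than 23 identical coding bases existed in any of the 4 pairs.

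PRRX1 (ENSG00000116132, chr1:170662728-170739421, plus strand, GRCh38) was listed in TPM (transcript abundance that takes gene length and library size into account) at 38.0, 31.7 and 35.8 in the ALDH_High libraries and at 3.94, 3.68 and 3.72 in the ALDH_Low libraries. Every ALDH_High library lay far above every ALDH_Low library, and within each group the libraries were close. The means were 35.2 ± 3.21 TPM (SD, n = 3) against 3.78 ± 0.142 TPM. On counts, edgeR's fit gave a log2 fold change of 3.17 (SE 0.15), or 9.01-fold. The estimated counts behind these levels were 1864, 1914 and 2086 against 277, 200 and 200, so counting error was small. In bulk RNA, fewer cells with a transcript and less of it per cell cannot be told apart, here or in any result below.

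PRRX2 (ENSG00000167157, chr9:129665647-129722674, plus strand), the closest relative of PRRX1, was barely detected. It had 14, 7 and 7 counts in ALDH_High and 4, 1 and 2 in ALDH_Low, too few to enter the test. Summed over libraries and scaled to their totals, its ratio was 4.05, with an exact 95% interval of 1.73 to 11 that covers counting error only. Without the filter on low counts its log2 fold change in edgeR was 2.08 with an adjusted p of 0.0698, and no other test that kept the gene reached the threshold. The PRRX1 to PRRX2 ratio of TPM lay between 45.5 and 113 in ALDH_High and between 23.6 and 72.7 in ALDH_Low. PRRX1 thus supplied nearly all PRRX transcript in both groups.

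**Figure D1:**
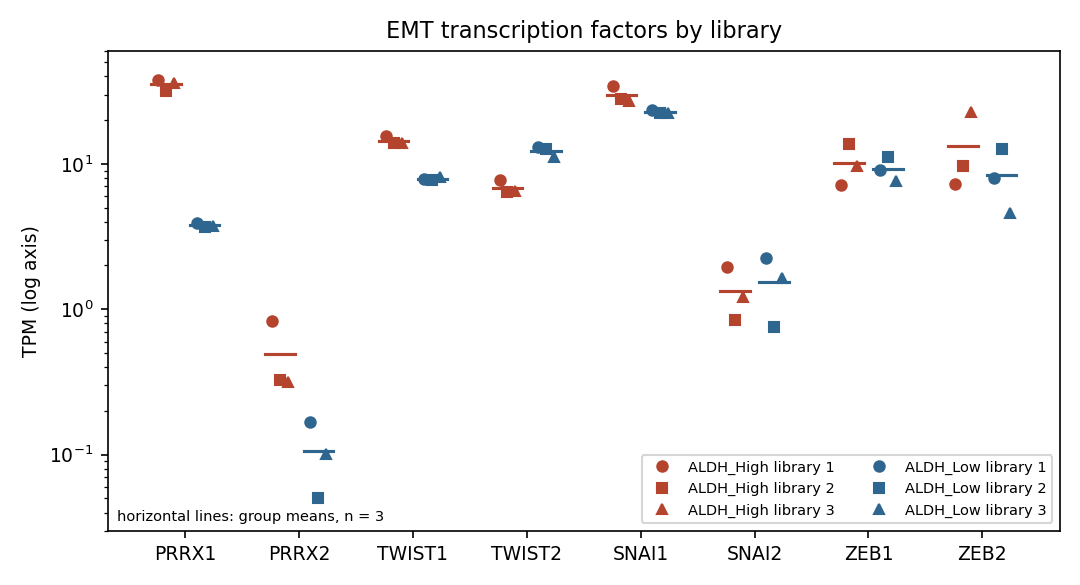
TPM of each of the 8 EMT factors by library, on a log axis, for ALDH_High (red) and ALDH_Low (blue). Points are libraries and lines are group means (n = 3). PRRX1, PRRX2, TWIST1 and SNAI1 lie higher in every ALDH_High library, TWIST2 lies lower in every one, and ZEB1, ZEB2 and SNAI2 overlap.

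Among the 7 factors taken by name, 6 had enough counts to be tested. By edgeR's quasi-likelihood test at an adjusted p below 0.05, TWIST1 rose, TWIST2 fell and the other 4 did not pass. Of all 17047 genes tested, 20.6% passed, 10.8% higher and 9.83% lower in ALDH_High, and 2 of 6 members (33.3%) are too few to be set apart from that rate. The groups did not overlap for 3 of the 6 (TWIST1, TWIST2 and SNAI1), against 37.8% of all genes tested. The median log2 fold change of the 6 was 0.22, against -0.013 over all genes tested. Since the set was chosen with earlier results of these data known, these values are not independent evidence about it.

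TWIST1 (ENSG00000122691, chr7:19020991-19117636, minus strand) encodes a helix-loop-helix factor of neural crest and mesoderm. Its levels were 15.5, 13.9 and 14 TPM in ALDH_High and 7.91, 7.69 and 8.18 TPM in ALDH_Low. The groups did not overlap, and the libraries within each lay close together. TWIST1 was 1.76-fold higher in ALDH_High, with a log2 fold change of 0.82 (SE 0.18) and an adjusted p of 0.00901 in edgeR.

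TWIST2 (ENSG00000233608, chr2:238848032-238910534, plus strand), known from dermal mesenchyme and a paralog with a nearly identical DNA-binding domain, went the other way. It stood at 7.73, 6.41 and 6.49 TPM in ALDH_High and at 13.1, 12.7 and 11.1 TPM in ALDH_Low. All ALDH_High libraries were below all ALDH_Low libraries. Its log2 fold change was -0.88 (SE 0.19), or 1.85-fold lower in ALDH_High, with an edgeR adjusted p of 0.00753.

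The 2 TWIST genes changed place while their sum stayed in one range. Their summed level was 21.3 ± 1.63 TPM (SD, n = 3) in ALDH_High and 20.2 ± 0.864 TPM in ALDH_Low, and the library values overlapped. The TWIST1 to TWIST2 ratio of TPM was 2.00, 2.17 and 2.15 in ALDH_High and 0.604, 0.605 and 0.735 in ALDH_Low. TWIST1 was the larger of the pair in every ALDH_High library and the smaller in every ALDH_Low library. The sum and ratio of the pair were chosen after its values were seen and carry no test.

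SNAI1 (ENSG00000124216, chr20:49982980-49988886, plus strand) encodes Snail, a direct repressor of CDH1. It was the most abundant of the 8 in ALDH_Low, at 23.6, 22.2 and 22.4 TPM, and was listed at 34.3, 28.0 and 26.9 TPM in ALDH_High. The groups did not overlap, but the log2 fold change of 0.35 (SE 0.15) did not pass the edgeR test, with an adjusted p of 0.146. Across the 290 well-expressed protein-coding genes of chromosome 20, where SNAI1 lies, the median log2 fold change was 0.28, a shift in the same direction whose part in the SNAI1 value was not tested.

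SNAI2 (ENSG00000019549, chr8:48917598-48921740, minus strand) encodes Slug, a factor needed by neural crest cells and melanocytes. Its levels were low, at 1.94, 0.842 and 1.22 TPM in ALDH_High and 2.27, 0.750 and 1.64 TPM in ALDH_Low. The range of ALDH_High lay within that of ALDH_Low. The log2 fold change was -0.27 (SE 0.46, edgeR adjusted p = 0.741), and leaving out ALDH_High 2 or ALDH_Low 1 turned its sign (0.013 and 0.11). A SNAI1 to SNAI2 ratio of TPM between 10.4 and 33.3 over the 6 libraries showed SNAI1 as the main SNAI transcript in all of them.

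ZEB1 (ENSG00000148516, chr10:31318495-31529814, plus strand) was listed at 7.17, 13.7 and 9.72 TPM in ALDH_High and at 9.01, 11.1 and 7.57 TPM in ALDH_Low. The values interleaved, and edgeR gave a log2 fold change of 0.09 (SE 0.20) with an adjusted p of 0.819. The sign was negative without ALDH_High 2 (-0.15) or without ALDH_Low 3 (-0.015). ZEB1 encodes a zinc finger and homeodomain repressor of epithelial genes.

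ZEB2 (ENSG00000169554, chr2:144364364-144521057, minus strand), whose product also takes part in melanocyte differentiation, varied most between libraries of the more abundant members. It stood at 7.28, 9.70 and 22.8 TPM in ALDH_High and 8.0, 12.6 and 4.58 TPM in ALDH_Low. The highest library of a group was 3.13 times the lowest in ALDH_High and 2.76 times in ALDH_Low, while the same ratio for PRRX1 was 1.2 and 1.07. The groups overlapped, and the log2 fold change of 0.59 (SE 0.40) had an edgeR adjusted p of 0.353. That value rested on single libraries: it was 0.019 without ALDH_High 3 and 0.99 without ALDH_Low 2.

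With no filter on low counts, ZEB2 passed the edgeR test at nearly the same fold change (0.60, adjusted p = 0.00389), although the library values are those given above. TWIST1 and TWIST2 passed under each of the 15 alternatives run, with adjusted p up to 0.0368 and 0.0409. SNAI1 passed under none, with adjusted p from 0.0788 to 0.316.

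**Figure D2:**
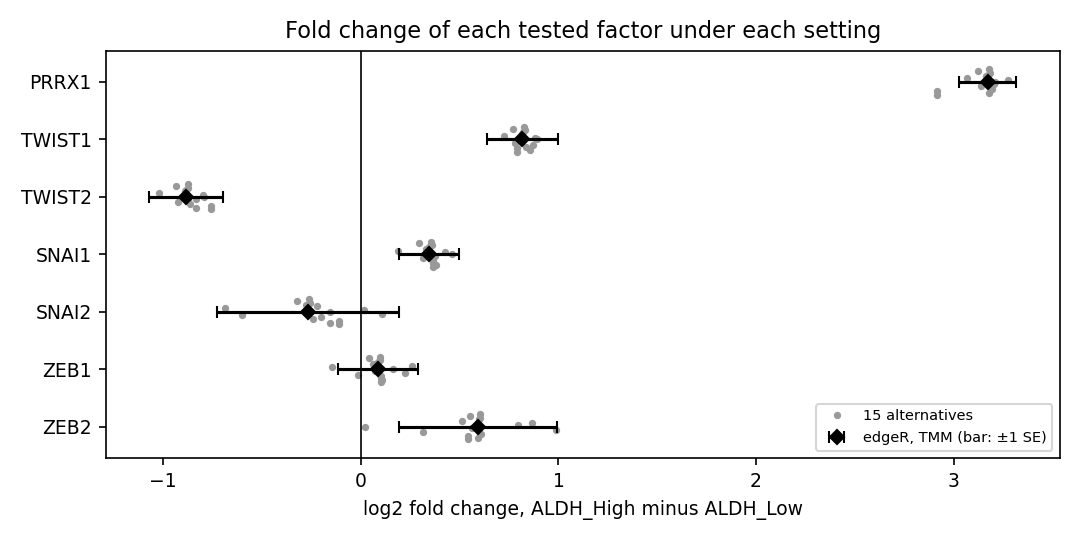
Log2 fold change, ALDH_High minus ALDH_Low, of the members other than PRRX2, from edgeR (black, bars are ±1 SE) and under each of 15 processing alternatives (grey points). PRRX1 stands at 3.17 and is shown without a test. TWIST1 at 0.82 and TWIST2 at -0.88 keep their sides of 0 under every alternative, while ZEB1 and SNAI2 cross 0.

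Balance within a library was also compared, since a ratio of 2 genes does not depend on library scaling. The log2 ratio of ZEB2 to ZEB1 TPM averaged 0.25 ± 0.89 in ALDH_High and -0.24 ± 0.46 in ALDH_Low (SD, n = 3), for which p was 0.5 by exact permutation of the library labels (two-sided). The log2 ratio of SNAI2 to TWIST1 TPM averaged -3.52 ± 0.52 against -2.49 ± 0.79, with an exact permutation p of 0.2. In this design of 3 against 3 the smallest p possible is 0.1, so neither ratio could have reached 0.05. Single SNAI2 to TWIST1 log2 ratios were -3.00, -4.04 and -3.52 in ALDH_High and -1.80, -3.36 and -2.32 in ALDH_Low, which overlap through ALDH_Low 2.

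The make-up of the set is given as a description, since shares sum to a whole and PRRX1, chosen for its level, weighs on all of them. Summed over the 8 genes, levels came to 111.5 ± 6.45 TPM in ALDH_High and 66.1 ± 6.01 TPM in ALDH_Low (SD, n = 3), and to 76.3 ± 4.52 and 62.3 ± 5.99 TPM without PRRX1. PRRX1 held 31.5% ± 1.90 of the sum in ALDH_High and 5.75% ± 0.540 in ALDH_Low, and TWIST2 held 6.17% ± 0.664 and 18.7% ± 0.671. SNAI1 held 26.7% ± 3.73 and 34.6% ± 3.22, although its TPM was higher in ALDH_High. Of the sum without PRRX1, SNAI1 held 39.1% ± 6.44 in ALDH_High and 36.7% ± 3.62 in ALDH_Low, TWIST1 held 19.0% ± 1.78 and 12.8% ± 1.68, and TWIST2 held 9.04% ± 1.21 and 19.8% ± 0.790.

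In ALDH_High the mean levels ran, from highest to lowest, PRRX1, SNAI1, TWIST1, ZEB2, ZEB1, TWIST2, SNAI2 and PRRX2. The ranges of neighbours overlapped for PRRX1 and SNAI1, for TWIST1 and ZEB2, for ZEB2 and ZEB1, and for ZEB1 and TWIST2. In ALDH_Low the order was SNAI1, TWIST2, ZEB1, ZEB2, TWIST1, PRRX1, SNAI2 and PRRX2, and only ZEB1 with ZEB2 and ZEB2 with TWIST1 overlapped. PRRX1 was thus at the top of one order and near the bottom of the other, while SNAI2 and PRRX2 closed both.

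**Figure D3:**
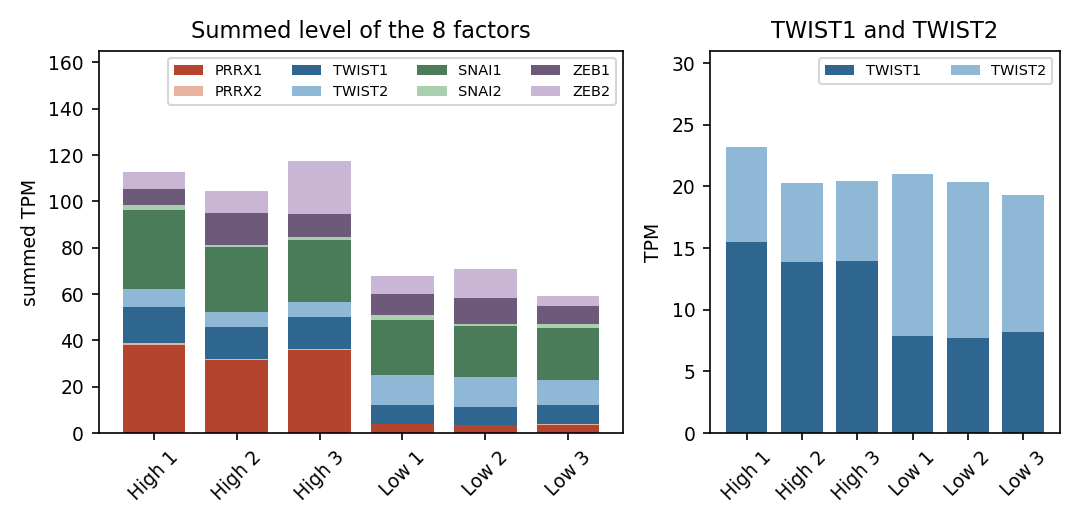
Stacked bars of TPM in each of the 6 libraries, starting at 0, for the 8 factors (left) and for TWIST1 and TWIST2 alone (right). The total lies between 104.5 and 117.3 TPM in the ALDH_High libraries and between 59.3 and 70.9 TPM in the ALDH_Low libraries, and the PRRX1 segment takes 31.5% of the sum on average in ALDH_High against 5.75% in ALDH_Low. The TWIST bars are of like height in all libraries.

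In the table of log2 coefficients that the authors deposited, from their own model of 5 groups of which 3 were not analysed here, the difference between the ALDH_High and ALDH_Low coefficients was 3.19 for PRRX1, 0.84 for TWIST1 and -0.86 for TWIST2. For SNAI1 and ZEB2 the authors' deposited table gave 0.37 and 0.61, and for ZEB1 and SNAI2 it gave 0.10 and -0.23. The same table set PRRX1 at 1.06 in ALDH_High and -2.14 in ALDH_Low against a group named 1A3, so the 2 sorted groups lay on either side of that group.

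Some members overlap other annotated genes. The lncRNA ENSG00000271811 lies within PRRX1 on the same strand and had 6, 13 and 12 counts in ALDH_High against 0, 1 and 3 in ALDH_Low, high in the same libraries as PRRX1 but too low to be tested. ZEB1-AS1, which overlaps ZEB1 on the opposite strand, had 31, 43 and 62 counts against 90, 59 and 72, with a log2 fold change of -0.68 (SE 0.29) and an edgeR adjusted p of 0.131. ZEB2-AS1 did not exceed 3 counts and PRRX2-AS1 had 0 in every library. Strand cannot separate reads of ENSG00000271811 from those of PRRX1, so its counts may include PRRX1 reads. The kit keeps strand, but whether the counting used it is not stated in the sources used here. Reads from pairs on opposite strands could therefore also have been counted together.

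Genes within 1 Mb of each member were also read from the fit. Around PRRX1, 10 genes were tested and 1 rose, the lncRNA AL354732.1 (log2 fold change 2.61, SE 0.35, edgeR adjusted p = 0.000569), while the median of the 10 was 0.20. Around TWIST1, 2 of 3 rose, among them HDAC9, a histone deacetylase whose gene is its neighbour, at 1.40 (edgeR adjusted p = 0.000616). Around TWIST2, 5 of 12 rose and 0 fell, while TWIST2 itself fell. Around ZEB1, 2 of 10 rose and 0 fell, and around ZEB2, 2 of 3 rose and 0 fell. Around SNAI1, 1 of 28 rose and 2 fell, around SNAI2, 0 of 4 rose and 1 fell, and around PRRX2, 2 of 35 rose and 4 fell. Over all genes tested, 10.8% rose and 9.83% fell, and each of these windows holds few genes. The neighbours named here were chosen after their values were seen.

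A group of 5 genes had the profiles most like that of PRRX1 over the 6 libraries, out of 14043 compared, by the root mean square difference of log2 CPM (counts scaled to the library total) after each gene's ALDH_Low mean was subtracted. They were LRP3, a member of the LDL receptor family (difference 0.147), GRASP, a scaffold protein (0.174), KCNS3, a potassium channel subunit (0.177), MMP15, a membrane-bound metalloprotease (0.185), and LRRC15, a leucine-rich repeat membrane protein (0.188). LRP3 stood at 26.0, 20.6 and 19.8 CPM in ALDH_High and at 2.88, 2.14 and 2.91 CPM in ALDH_Low. PRRX1 stood at 73.5, 55.4 and 61.2 CPM against 7.18, 6.69 and 7.19 CPM. In both genes ALDH_High 1 was the highest library, and the groups lay far apart. That gap follows from the choice, since a gene close to PRRX1 by this measure must share its rise. The likeness is a description over 6 libraries and has no p.

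**Figure D4:**
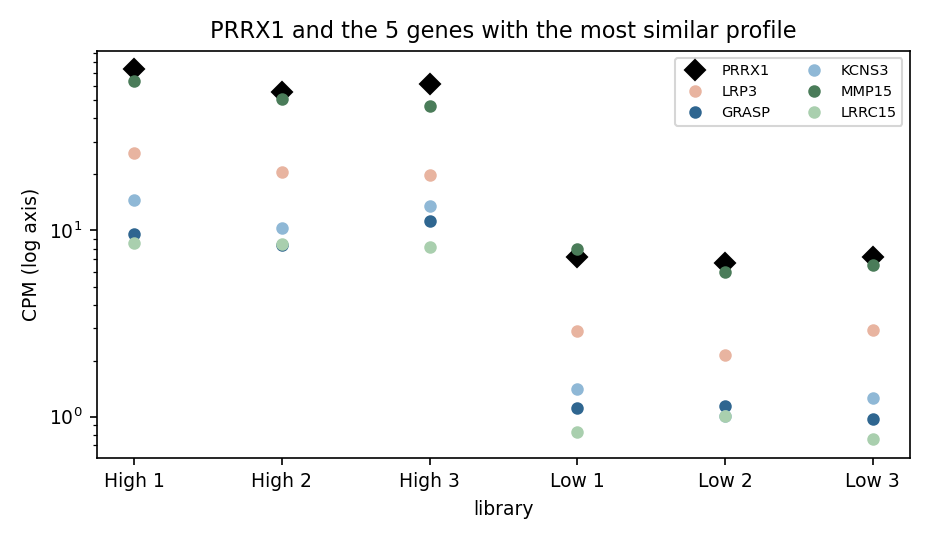
CPM by library, on a log axis, for PRRX1 (black diamonds) and the 5 genes with the profile most like it. Each gene lies well above its ALDH_Low points in all 3 ALDH_High libraries, as PRRX1 does at 55.4 to 73.5 against 6.69 to 7.19 CPM. The gap of the 5 genes follows from how they were chosen.

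The small RNAs that repress ZEB1 and ZEB2 are shown because their seeds group the members. The mature miR-200 sequences are from RefSeq (GRCh38.p14), read 5′ to 3′, and capitals mark the seed, bases 2 to 8.
hsa-miR-200b-3p: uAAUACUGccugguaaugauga
hsa-miR-200c-3p: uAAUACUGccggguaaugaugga
hsa-miR-429: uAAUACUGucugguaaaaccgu
hsa-miR-200a-3p: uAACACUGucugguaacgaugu
hsa-miR-141-3p: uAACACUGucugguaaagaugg
They fall into 2 seed groups that differ at a single base. The match to each seed that lies nearest the start of the 3′ UTR of ZEB1 and ZEB2 is printed with the match in capitals, in the sense of the transcript. The ZEB1 matches lie in exon 9 at chr10:31527618-31527639 and chr10:31528031-31528052, and the ZEB2 matches in exon 10 at chr2:144389053-144389074 and chr2:144389237-144389258.
ZEB1, first seed group: attgttttatcttatCAGTATT
ZEB1, second seed group: caaaatcatcagaatCAGTGTT
ZEB2, first seed group: cgcactaccatacatCAGTATT
ZEB2, second seed group: tgcaaaaattttgtaCAGTGTT

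In the 3′ UTRs of the GENCODE canonical transcripts, searched on the transcript strand only, CAGTATT occurred 6 times in ZEB1, 5 times in ZEB2, 1 time in SNAI2 and not in the other 5 members. At least 1 match was present in 15.3% of 20457 transcripts, at least 5 in 0.0391% and at least 6 in 0.00978%, whatever their UTR length. CAGTGTT occurred 3 times in ZEB1, 4 times in ZEB2 and in no other member, and 17.4% of transcripts held at least 1. PRRX1, whose 3′ UTR of 3235 bases is longer than that of ZEB1 at 2540 bases, held neither. A match is a description of the letters and not a measured site.

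The libraries do not measure mature miRNAs. The host gene MIR200CHG, from which miR-200c and miR-141 come, had 1 count in ALDH_High 2 and 1 in ALDH_Low 3. Rows of the miRNA genes themselves were nearly empty as well. MIR200B had 1 count in ALDH_Low 2, and MIR200A, MIR429, MIR200C and MIR141 had 0 counts throughout. No host gene row was read for miR-200b, miR-200a and miR-429.

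The pathway around the factors was read from 8 lists of 124 genes, of which 97 were tested. By edgeR, 16 rose and 21 fell in ALDH_High, 38.1% of those tested. The share over all genes was 20.6%, but the lists were chosen with earlier results of these data known, so the higher share is not independent evidence about them. Of the genes named from the lists, the edgeR calls of SOX4, SOX9, AJUBA, SMAD2, KLF4 and CLDN1 were lost under limma on log2(TPM + 1) with no TPM filter only (adjusted p from 0.0531 to 0.107). Both directions occurred in 6 of the 8 lists, and the medians lay between -0.32 and 0.14. The share past the threshold was 0% for turnover genes, 23.1% for corepressors and 25% for other EMT factors. It was 40% for epithelial state regulators, 41.7% for TGF-beta inducers and 47.4% for epithelial junction and keratin genes. For mesenchymal genes it was 50%, and for E protein partners and ID inhibitors 62.5%.

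**Figure D5:**
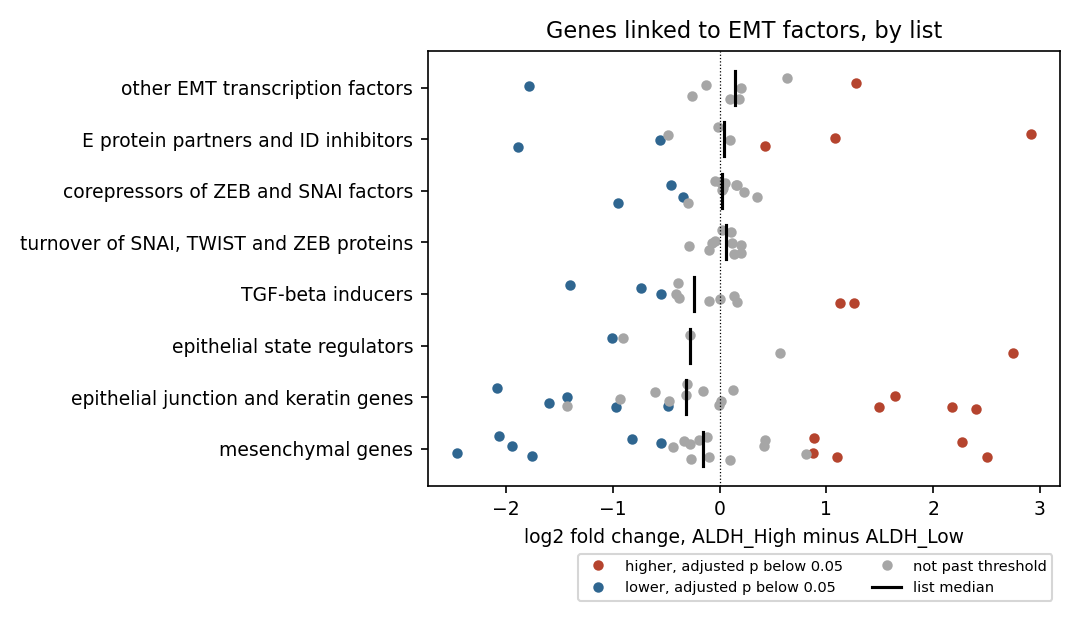
Log2 fold change, ALDH_High minus ALDH_Low, of every tested gene in each of the 8 pathway lists. Red and blue points passed an edgeR adjusted p of 0.05 (higher and lower), grey points did not, and black bars are list medians. The medians lie between -0.32 and 0.14. The mesenchymal genes range from -2.47 to 2.51 (FN1). The epithelial junction and keratin genes range from -2.09 (KRT8) to 2.40 (CDS1).

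Of 13 other transcription factors linked to EMT, 8 were tested, 1 rose and 1 fell, with a median log2 fold change of 0.14. That share of 25% was near the 20.6% of all genes tested. SOX4, a SOX factor that acts downstream of TGF-beta, rose from 1.09, 0.954 and 0.867 TPM in ALDH_Low to 2.61, 2.10 and 2.60 TPM in ALDH_High (log2 fold change 1.28, SE 0.20, edgeR adjusted p = 0.00156). SOX9, a neural crest and chondrocyte factor, fell from 11.9, 5.91 and 4.53 TPM to 2.55, 1.97 and 2.12 TPM (log2 fold change -1.79, SE 0.33, edgeR adjusted p = 0.00344). FOXC1, FOXC2, HMGA2, TBX3 and GSC were among those that did not pass.

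E proteins pair with TWIST factors, and ID proteins hold E proteins away from DNA. Of 9 such genes 8 were tested, 3 rose and 2 fell. ID3 had the smallest p and fell from 254, 197 and 236 TPM in ALDH_Low to 74.8, 54.1 and 61.9 TPM in ALDH_High (log2 fold change -1.89, SE 0.18, edgeR adjusted p = 5.9e-05), with no overlap. ID1 fell by 0.56 on the log2 scale (edgeR adjusted p = 0.016), and its call was lost without ALDH_High 2 or 3 or without ALDH_Low 1 or 3 (adjusted p from 0.0658 to 0.0761). HAND2, a helix-loop-helix factor that pairs with E proteins, rose by 1.08 (edgeR adjusted p = 0.00774). ID4 rose by 2.92 from under 1 TPM (edgeR adjusted p = 0.0162, and 0.0679 or 0.0740 without ALDH_Low 2 or 3). The ID4 call was also lost under limma on log2(TPM + 1) with no TPM filter (adjusted p = 0.150). TCF12 rose by 0.43 (edgeR adjusted p = 0.0397), a call that ended on leaving out any of the 6 libraries (adjusted p from 0.0509 to 0.124). The TCF12 call also ended with upper-quartile scaling in edgeR (adjusted p = 0.0580) and under all limma alternatives (adjusted p = 0.0594, 0.0606 and 0.117). The E protein gene TCF4, at -0.013 (adjusted p = 0.988), ran from 4.01 to 16.4 TPM within ALDH_Low alone, and its sign turned with several settings.

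Among 13 corepressors of ZEB and SNAI factors, all tested, 0 rose and 3 fell. That share of 23.1% was near the 20.6% of all genes tested. AJUBA, a LIM protein that links SNAI proteins to their partners, fell by 0.95 on the log2 scale (edgeR adjusted p = 0.00243), from 44.2, 46.5 and 40.0 TPM to 15.9, 26.8 and 27.9 TPM. KDM1A, the histone demethylase LSD1 that SNAI1 recruits, fell by 0.46 (edgeR adjusted p = 0.0121), a call lost under all 3 limma alternatives (adjusted p = 0.0549, 0.0569 and 0.106). HDAC1, a histone deacetylase, fell by 0.34 (edgeR adjusted p = 0.0328), and its call held without ALDH_High 1 but was lost on leaving out any other library (adjusted p from 0.0581 to 0.128). The HDAC1 call was also lost with no filter on low counts and with the replicate block (adjusted p = 0.0856 and 0.0603). All 3 limma alternatives lost it too (adjusted p = 0.0641, 0.0687 and 0.0977). CTBP1 and CTBP2, the corepressors that ZEB proteins bind, were at -0.05 and 0.03 and did not pass. None of 10 genes for the turnover of SNAI, TWIST and ZEB proteins passed the edgeR test, against 20.6% of all genes tested. FBXW7 and GSK3B were among the 10, whose log2 fold changes lay between -0.28 and 0.20.

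TGF-beta is a main inducer of these factors. Of 12 genes for ligands, receptors, SMADs and the SMAD-binding corepressors SKI and SKIL, all tested, 2 rose and 3 fell, with a median of -0.24. SMAD7, the inhibitory SMAD that TGF-beta itself induces, fell from 12.1, 12.9 and 10.2 TPM in ALDH_Low to 4.14, 5.08 and 4.52 TPM in ALDH_High (log2 fold change -1.41, SE 0.15, edgeR adjusted p = 0.000143). SMAD2, a receptor-activated SMAD, fell by 0.55 (edgeR adjusted p = 0.00662), and the receptor gene TGFBR2 fell by 0.74 (edgeR adjusted p = 0.0101, and 0.0532 without ALDH_High 2). The TGFBR2 call was also lost under limma on log2(TPM + 1) with no TPM filter (adjusted p = 0.103). SMAD2 and SMAD7 lie on chromosome 18, where the median log2 fold change of 155 well-expressed protein-coding genes was -0.22. That shift has the same direction, and its part in the SMAD2 and SMAD7 values was not tested. The ligand gene TGFB3 and the coreceptor gene TGFBR3 rose by 1.26 and 1.13 (edgeR adjusted p = 0.0253 and 0.0326). Each of these calls was lost on leaving out any of 4 libraries, ALDH_High 2 or 3 and ALDH_Low 2 or 3 for TGFB3 (adjusted p up to 0.0767) and ALDH_High 1 or 3 and ALDH_Low 2 or 3 for TGFBR3 (adjusted p up to 0.120). Both calls were also lost under limma on log2(TPM + 1) with no TPM filter (adjusted p = 0.116 and 0.213). That of TGFB3 was lost under limma on log2(TPM + 0.1) as well (adjusted p = 0.0541).

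Epithelial state regulators were mostly at or near 0: of 13, only 5 were tested. EHF, an ETS factor of epithelia, rose by 2.75, from 0.102, 0.0384 and 0.0773 TPM in ALDH_Low to 0.331, 0.542 and 0.694 TPM in ALDH_High (edgeR adjusted p = 0.00275), and KLF4 fell by 1.0, from 29.5, 26.1 and 21.0 TPM to 10.0, 14.7 and 15 TPM (edgeR adjusted p = 0.00143). CDH1 itself had 3, 3 and 7 counts in ALDH_High and 38, 2 and 7 in ALDH_Low and was not tested. It was near the limit of detection in both groups, apart from ALDH_Low 1.

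Of 30 epithelial junction and keratin genes 19 were tested, 4 rose and 5 fell, with a median of -0.32. CDS1, a lipid enzyme used as an epithelial marker, rose by 2.4 (edgeR adjusted p = 0.000912), and the tight junction gene CLDN1 rose by 1.49 (edgeR adjusted p = 0.00383). CLDN4 rose by 2.18 (edgeR adjusted p = 0.0179, and 0.0716 or 0.0849 without ALDH_Low 2 or 3). Its call was also lost under all limma alternatives (adjusted p = 0.0707, 0.0537 and 0.167). CLDN4 stood at 16.5, 4.82 and 4.06 TPM in ALDH_High and at 2.62, 1.34 and 1.57 TPM in ALDH_Low, so ALDH_High 1 weighed on the value. The desmosome gene PKP2 fell from 10.4, 13.3 and 9.85 TPM in ALDH_Low to 3.08, 4.11 and 4.28 TPM in ALDH_High (log2 fold change -1.60, edgeR adjusted p = 9.4e-05). KRT18 and KRT8, the simple epithelial keratins, fell by 1.43 and 2.09 (edgeR adjusted p = 0.00134 and 0.00343), but both have many processed pseudogenes that could share their reads, so their values are uncertain.

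Of 24 mesenchymal genes 22 were tested, 5 rose and 6 fell, with a median of -0.16. FN1, which encodes fibronectin, rose from 12.9, 10.0 and 12.1 TPM in ALDH_Low to 63.3, 74.4 and 68.6 TPM in ALDH_High (log2 fold change 2.51, SE 0.13, edgeR adjusted p = 4e-06). TNC, which encodes the matrix protein tenascin C, rose from 76.0, 76.7 and 83.6 TPM to 414, 384 and 380 TPM (2.27, SE 0.13, edgeR adjusted p = 4.7e-06), and the collagen gene COL5A2 rose by 1.10 (edgeR adjusted p = 0.000142). TGFBI, a matrix protein gene known as a target of TGF-beta, fell by 1.95 on the log2 scale (edgeR adjusted p = 6e-06). The noncanonical WNT ligand gene WNT5A fell by 0.82 (edgeR adjusted p = 0.000487). CDH2, which encodes N-cadherin, was at -0.12 (adjusted p = 0.537) and VIM, which encodes vimentin, at 0.10 (adjusted p = 0.618) in edgeR, both abundant in all 6 libraries.

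The melanoma label and other cell types were checked by marker genes. Of 10 melanocyte lineage markers, 8 exceeded 3 counts in some library and MLANA and TYR did not. Their summed level was 524 to 593 TPM in ALDH_High and 131 to 144 TPM in ALDH_Low, led by SOX10, the neural crest factor of the lineage (log2 fold change 1.79, edgeR adjusted p = 3.1e-05). S100B and S100A1 also rose, at means of 56.5 and 85.9 TPM in ALDH_High against 2.81 and 3.10 TPM in ALDH_Low. The other markers did not raise the sum: PMEL, DCT and TYRP1 had means of 0.329, 0.0685 and 0.107 TPM against 0.396, 0.0745 and 0.212 TPM, and PAX3 had 7.60 against 8.58 TPM. MITF, the master regulator of melanocytes, fell by 0.92 (edgeR adjusted p = 0.00667, and 0.109 in limma with no TPM filter). All 10 fibroblast markers exceeded 3 counts in some library, with a summed level of 12.1 to 15 TPM against 10.0 to 12.4 TPM. Of the 6 tested, 0 rose and 1 fell, PDGFRB, at a mean of 2.13 TPM in ALDH_High against 3.59 TPM in ALDH_Low. LUM had the largest mean, at 6.28 against 3.67 TPM, and PDPN had 0 counts in every ALDH_High library. White blood cell markers (6 of 9 detected, MS4A1 at 0) summed to 4.2 to 9.48 against 3.6 to 5.15 TPM, endothelial markers (5 of 6, CLDN5 at 0) to 3.12 to 3.18 against 0.736 to 0.95 TPM, and keratinocyte markers (6 of 6) to 98.5 to 132 against 99.6 to 124 TPM. The endothelial difference was that of KDR, a VEGF receptor gene, at 2.38 to 2.82 against 0.105 to 0.293 TPM, and the other endothelial markers summed to 0.354 to 0.732 against 0.443 to 0.845 TPM. Without LYZ, which encodes lysozyme, the white blood cell markers summed to 1.10 to 1.78 against 2.61 to 3.43 TPM, lower in ALDH_High, where CD14 and FCER1G fell. The keratinocyte sum was mostly KRT10, at a mean of 95.6 TPM in ALDH_High against 100 TPM in ALDH_Low, and KRT14, at 18.9 against 12.2 TPM. KRT5 fell, KRT1 did not exceed 4 counts in any library and TP63 did not exceed 8. The part of these marker levels in the values of the EMT factors was not tested. ALDH1A3, an ALDH gene that Aldefluor activity is often traced to, rose by 1.32 (edgeR adjusted p = 0.000734).

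Depth was similar across groups, from 26692868 to 34226461 counts per library in ALDH_High and from 28027125 to 37830603 in ALDH_Low. Every pair of libraries differed by more than counting noise, so none was a copy of another. The chi-square per degree of freedom was lowest between ALDH_High 2 and ALDH_High 3, at 13.5. Between ALDH_High 1 and ALDH_High 2 or 3 it was 45.6 and 56.1, and within ALDH_Low it ran from 22.6 to 28.8.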

How the data were processed

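RNA from 6 libraries, 3 ALDH_High and 3 ALDH_Low, was compared by the groups in the sample titles. The authors deposited estimated counts rounded to whole numbers, read as such from the values because 133 to 177 genes per library had a count of 0 beside a TPM above 0. The design had assumed raw counts, and the same test was used. The authors also deposited TPM values and log2 coefficients from a DESeq2 model of 5 groups (per the file headers), in which 226 rows with shifted cells were not used. The submitters' processing notes name STAR 2.5.1b, HTSeq 0.6.1, FastQC 0.11.3, DESeq2 and GRCh38, without saying which step made which values.

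The members and all gene lists were chosen with earlier results of these data known. Counts of 57914 genes were filtered with filterByExpr (17047 kept), scaled by TMM and tested two-sided with edgeR 4.0.16 (quasi-likelihood, Benjamini-Hochberg adjustment over all genes tested) in R 4.3.3, without the replicate number. The script was tested on simulated data. Rows without a gene name numbered 261, held 0.0213% to 0.0267% of the counts and stayed in. CPM values use the library totals of the genes kept, scaled by TMM. Totals per library were 26692868 to 37830603, and intervals cover counting error only. Alternatives were DESeq2 1.42.0, limma 3.58.1 on log2(TPM + 1) or log2(TPM + 0.1), other scalings and filters, the replicate number as a block, and each library left out in turn. Annotation came from GENCODE 44. Of each pathway list, up to 3 higher and 3 lower genes past the threshold with the smallest p were named, beside the members and a fixed set of reference genes. Some list genes are counted but not reported here by name. PRRX1 was not tested.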

Additional observations from a re-analysis of the deposited data

How the results depend on the processing

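The number of EMT factors taken by name past the threshold was 2 under 14 of the 15 alternatives, including each library left out, and 3 with no filter on low counts. PRRX1 lay between 2.92 and 3.28 on the log2 scale. Under limma on log2(TPM + 1) with no TPM filter, 2006 genes passed in place of 3513 and 17 genes of the pathway lists in place of 37, the cause of which was not tested. Leaving out each library in turn gave 2488 to 4221 genes and 27 to 42 list genes. ZEB1 turned to -0.15 without ALDH_High 2 and -0.015 without ALDH_Low 3, and ranged up to 0.26. SNAI2 turned to 0.013 without ALDH_High 2 and 0.11 without ALDH_Low 1, and ranged down to -0.69. TCF4, at -0.013, turned to 0.00060 with no filter on low counts, 0.17 with the replicate block, 0.0024 in DESeq2, 0.19 in limma on log2(TPM + 1) with or without the TPM filter, and 0.23 on log2(TPM + 0.1). With libraries left out TCF4 ranged from -0.38 to 0.60, at 0.0087 without ALDH_High 1, 0.15 without ALDH_High 2 and 0.60 without ALDH_Low 2. The causes of these changes were not tested.

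The deviations of same-numbered libraries from their group means correlated at 0.15, 0.076 and 0.108. Differently numbered libraries were not compared in this way, so whether the replicate number pairs the libraries was not tested. The fit with the replicate block gave 3748 genes, 2 members and 37 list genes, and the ratio tests under the block gave exact permutation p = 0.75 for ZEB2 to ZEB1 and 0.25 for SNAI2 to TWIST1, where 0.25 is the smallest p that 3 pairs allow. Among the single genes named, HDAC1 (adjusted p = 0.0603) was the only call lost under the block. PRRX2, with 28 counts in ALDH_High and 7 in ALDH_Low, is limited by depth. No result met the rule for a closer look, since groups of 3 are too small for it.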
